A study of Saccharomyces cerevisiae with 18 samples.

Results

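The genes described here encode proteins of the mitochondrial ribosome of budding yeast, Saccharomyces cerevisiae. They were chosen by symbol: MRPL or MRPS and a number, MRP and a number with MRP8 left out, or RSM and a number. In the R64 annotation 66 genes meet this rule, and 65 of them had a probe set on the array, out of 5449 yeast genes measured. The gene without a probe set named for it is MRP35. Of the 65, 37 encode proteins of the large subunit and 28 of the small subunit, and they lie on 14 chromosomes.

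The mitochondrial ribosome translates the few messages of the mitochondrial genome, nearly all of which encode subunits of the respiratory chain and ATP synthase. Its RNAs are made in the organelle, whereas nearly all of its proteins are encoded in the nucleus, made in the cytosol and imported. Part of its proteins descend from those of the bacterial ribosome and part are found only in mitochondria. By the family names in the annotation, 27 measured members belong to families shared by all ribosomes (such as uS7m), 13 to families shared with bacteria (such as bS18m) and 24 to mitochondria-specific families (such as mL43). RSM22 has no family name there.

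RNA from 18 samples was measured on Affymetrix arrays, with 3 replicates in each of 6 groups. The groups were SWI6 wild type cells, a swi6 deletant and a mutant with a cysteine of Swi6 replaced by alanine (C404A), each as control or after linoleic acid hydroperoxide (LoaOOH), a lipid peroxide that causes oxidative stress. Swi6 is a subunit of the transcription factors that switch on genes at the start of the cell cycle, and the study asked whether this cysteine takes part in redox control of the cycle. Cells of every group grew at 30 °C in synthetic medium without leucine to an OD600 of 0.4, and treatment was 30 µM for 45 min. The sources used here do not give the strain background, the way each allele was carried or whether replicates came from separate cultures. A p-value therefore covers the scatter among these arrays, which may be technical in part.

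The SWI6 signal checked the genotype labels: it was 3.13 to 4.33 on the log2 scale in the 6 deletant arrays, below the background level of 4.52, and above 10 in every other array. The pair of arrays labelled C404A mutant replicate 2 stood apart. Its LoaOOH minus control differences over all genes correlated at -0.603 to -0.214 with those of the other 8 pairs, which correlated at 0.458 to 0.848 with each other. POT1, the peroxisomal thiolase, had a signal of 9.42 in its control array and 8.89 in its LoaOOH array, whereas the other control arrays lay between 6.47 and 7.43 and the other LoaOOH arrays between 9.35 and 10.49. Values below include this pair unless stated otherwise, and only some of them are also given without it. Over the 259 genes of chromosome V, control cells of the deletant had a median difference from wild type of 0.76 and those of the C404A mutant 0.70, and 1 member, RSM18, lies there. Replicates 1 and 2 are described with the prefix CT and replicate 3 with JC, which the sources used here do not explain.

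All 65 members were expressed above background in these cells: their mean log2 signals ran from 9.22 to 12.66. Each member had 1 probe set, and the signal of one probe set is not comparable with that of another, so every comparison below is of a gene with itself between arrays. In bulk RNA, a change in the share of some cells and a change of RNA per cell cannot be told apart.

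The level of the members varied widely between arrays of the same group. With each gene set against its own wild type control mean, the median over the members was -0.15, -0.01 and 0.16 in wild type control replicates 1, 2 and 3. Replicate 1 had only 2 of 65 members above their wild type mean and replicate 3 had 63. The medians were -0.05, 0.15 and 0.13 in wild type LoaOOH arrays, 0.11, 0.04 and 0.01 in deletant control arrays and 0.16, 0.13 and 0.07 in deletant LoaOOH arrays. In the C404A mutant they were 0.15, 0.19 and 0.03 in control and 0.24, 0.18 and 0.21 in LoaOOH arrays. The median over all genes stayed between -0.05 and 0.03 on the same scale. The pooled within-group SD of the member median was 0.090. The group means, from 0.00 in wild type control to 0.21 in C404A mutant LoaOOH, lay closer together than the lowest and highest single wild type control arrays. All C404A mutant LoaOOH arrays, from 0.18 to 0.24, nevertheless lay above every wild type array of either treatment.

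**Figure D1:**
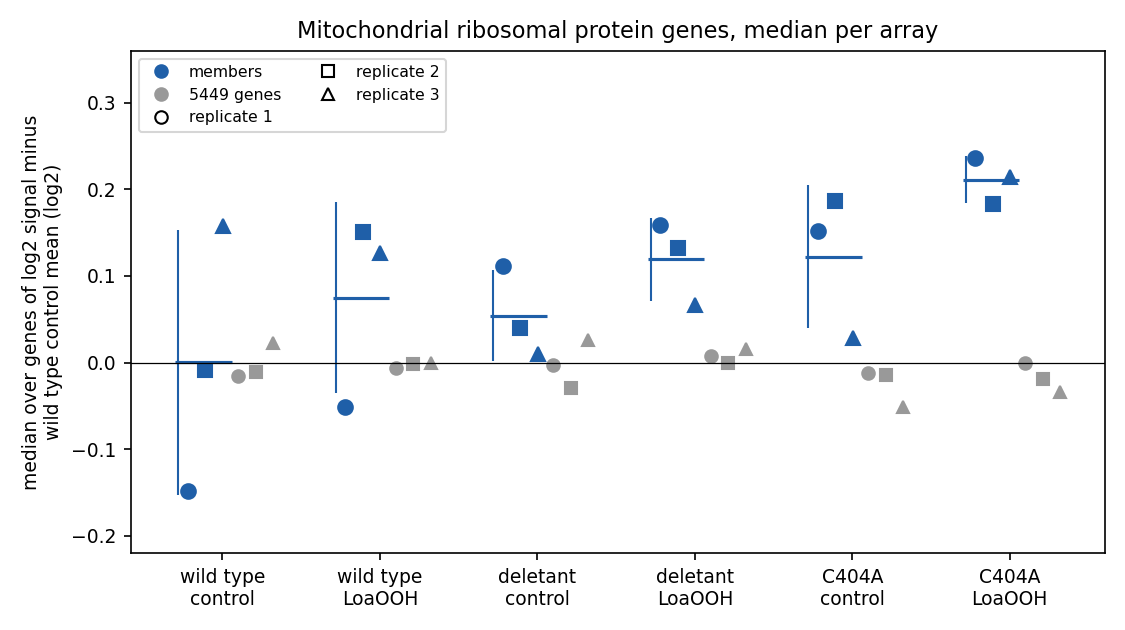
Median over the 65 members (blue) and over all 5449 genes (grey) of log2 signal minus the wild type control mean, 1 point per array, by group; horizontal lines are means and vertical lines ± SD of the 3 arrays. The wild type control arrays run from -0.15 to 0.16, a span that holds most arrays of the other groups but none of C404A mutant LoaOOH.

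The array-to-array changes were shared by most members in wild type and less so in the mutants. Replicate 3 lay above the mean of replicates 1 and 2 for 63 of 65 members in wild type control and 57 in wild type LoaOOH. It did so for 22 in deletant control, 16 in deletant LoaOOH, 14 in C404A mutant control and 27 in C404A mutant LoaOOH. The difference of replicate 3 from the mean of replicates 1 and 2 had an SD over the members of 0.269 in deletant control, 0.216 in C404A mutant control and 0.262 in C404A mutant LoaOOH, against 0.124, 0.093 and 0.120 for replicate 1 minus replicate 2 in the same groups. These SDs were 0.148 against 0.0806 in wild type control and 0.0949 against 0.0847 in wild type LoaOOH, and the order was turned in deletant LoaOOH, at 0.0961 against 0.125. Over all genes the replicate 3 SD was 0.219 in deletant control, 0.246 in C404A mutant control and 0.280 in C404A mutant LoaOOH. Replicate 1 minus replicate 2 gave 0.197, 0.222 and 0.325 over all genes in these groups. In wild type control, wild type LoaOOH and deletant LoaOOH the replicate 3 SD over all genes was 0.219, 0.214 and 0.143. By this SD the members thus spread less than all genes in every group but deletant control. MRPL1, a homologue of the bacterial L1 stalk protein, was 0.47 higher in deletant control replicate 3 and 0.56 higher in wild type control replicate 3 than in the other arrays of those groups. In C404A mutant control replicate 3 it was lower, at -0.71. MRPL35 (mL38) gave 0.35, 0.55 and -0.67, and MRP13 (mS44) gave 0.39, 0.48 and -0.56 in the same order. These 3 had the highest within-group SDs of all members, which ran from 0.068 to 0.315.

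Over the 65 members, the replicate 3 differences of deletant control and C404A mutant control were correlated at -0.82, and those of wild type control and C404A mutant control at -0.85. The control and LoaOOH arrays of the C404A mutant were correlated at 0.86. Over all 5449 genes the same correlations were -0.45, -0.74 and 0.60. The points of each correlation are genes that share arrays, so they are a description with no test. MRPL25, MRPL39 and MRPL50, large subunit proteins, moved the other way in deletant control replicate 3, at -0.54, -0.56 and -0.63. In C404A mutant LoaOOH replicate 3 the same genes gave 0.39, 0.41 and 0.31. They changed less in C404A mutant control replicate 3, at -0.0005, 0.15 and 0.11, and in wild type control replicate 3, at 0.09, 0.03 and 0.13. Replicate 3 and the JC prefix cannot be told apart here.

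**Figure D2:**
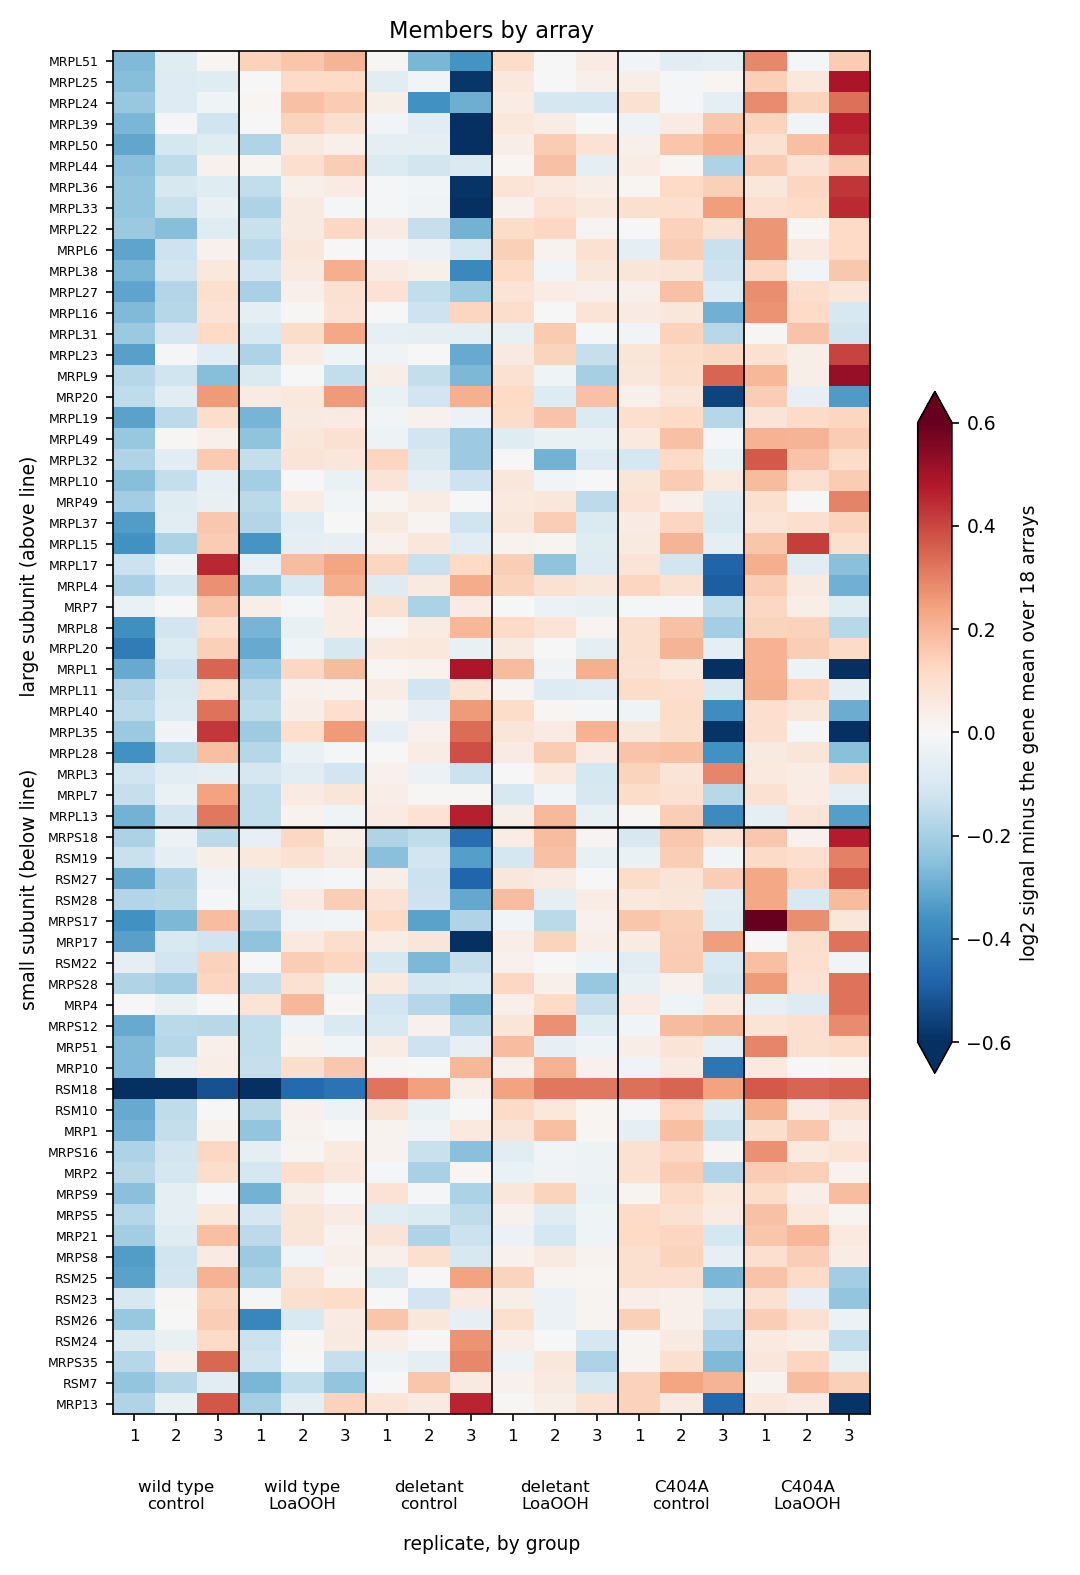
Log2 signal of each of the 65 members (rows, large subunit above the line, small subunit below) in each of the 18 arrays (columns, replicate 1 to 3 by group), minus the mean of that gene over the 18 arrays; the colour scale ends at ± 0.6. Wild type control replicate 1 is low for nearly all members, the replicate 3 arrays of deletant control and of the C404A mutant split the members in opposite ways, and RSM18 separates wild type from both mutants.

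After LoaOOH, most members were slightly higher. Averaged over the genotypes, 54 of 65 members had an estimate above 0, against 50.3% of all genes, and the median over the members was 0.077 against 0.001 over all genes. In this comparison 6 members rose and 0 fell at an adjusted p under 0.05 (limma, Benjamini-Hochberg over all genes), where 9.56% of all genes rose and 11.5% fell. The share of members that rose is close to that background, so the count is no result about the members. All 6 rises were at most 1.18-fold. In CT arrays alone, 1 member (MRPL44) passed.

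MRPL51 (mL43), a mitochondria-specific protein of the large subunit, had log2 signals of 10.81, 11.00 and 11.09 in wild type control and 11.21, 11.24 and 11.28 in wild type LoaOOH arrays. In the deletant it had 11.08, 10.80 and 10.72, then 11.19, 11.07 and 11.13. In the C404A mutant it had 11.06, 11.01 and 11.02, then 11.36, 11.06 and 11.23. The groups overlapped in the deletant and did not in wild type or, by a margin lost in rounding, in the C404A mutant. Averaged over genotypes, MRPL51 rose by 0.24 ± 0.06 (SE; limma adjusted p = 0.00639), a fold of 1.18.

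MRPL25 (mL59), another mitochondria-specific large subunit protein, had 10.40, 10.58 and 10.58 in wild type control and 10.65, 10.77 and 10.77 after LoaOOH. In the deletant it had 10.59, 10.64 and 10.07, then 10.72, 10.66 and 10.69. In the C404A mutant it had 10.69, 10.65 and 10.67, then 10.80, 10.72 and 11.14. LoaOOH and control arrays did not overlap in any genotype. The average rise was 0.23 ± 0.07 (limma adjusted p = 0.0419), and it missed the threshold in 15 of 30 alternatives, with adjusted p up to 0.1. Of the single arrays left out, its call held only for those of deletant control, wild type LoaOOH replicate 1 and C404A mutant LoaOOH replicates 1 and 2.

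MRPS18, the homologue of bacterial S11 in the small subunit, had 11.17, 11.33 and 11.20 in wild type control and 11.32, 11.49 and 11.40 after LoaOOH, which overlapped. The deletant had 11.18, 11.21 and 10.91, then 11.41, 11.55 and 11.38, with no overlap. The C404A mutant had 11.27, 11.53 and 11.46, then 11.52, 11.39 and 11.84, and these overlapped. Without replicate 2, the pair that stood apart, they did not. Its average rise was 0.23 ± 0.06 (limma adjusted p = 0.0212). MRPL24, the homologue of bacterial L28, had 9.63, 9.78 and 9.83 in wild type control and 9.87, 10.03 and 10.01 after LoaOOH. The deletant had 9.89, 9.49 and 9.56, then 9.90, 9.76 and 9.75, and the C404A mutant 9.95, 9.84 and 9.80, then 10.14, 9.99 and 10.18. Groups overlapped in the deletant alone of the 3 genotypes, and the average rise was 0.21 ± 0.06 (limma adjusted p = 0.0172).

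The other members that rose were MRPL44 (mL53) of the large subunit, by 0.17 ± 0.05 (limma adjusted p = 0.0149), and RSM19, the homologue of bacterial S19, by 0.17 ± 0.05 (limma adjusted p = 0.025). The call of RSM19 was lost on leaving out wild type control replicate 1, C404A mutant control replicate 1, wild type LoaOOH replicate 2 or C404A mutant LoaOOH replicate 3, with adjusted p of 0.0506 to 0.0535. RSM19 is the neighbour of MRPS12 on chromosome XIV, the one neighbouring pair among the members. By subunit, 4 of 37 large and 2 of 28 small subunit members rose, with medians of 0.073 and 0.081. The median was 0.10 over the 13 members of families shared with bacteria, all of them above 0, 0.082 over the 27 universal ones and 0.036 over the 24 mitochondria-specific ones.

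The lowest estimate was that of MRP13, at -0.10 ± 0.11 (limma adjusted p = 0.556). It was lower after LoaOOH in all 9 pairs of arrays of the same number, alone of the members (1.54%), against 3.41% of all genes. In all 9 pairs 9 members (13.8%) were higher, against 2.13% of all genes. Leaving out the pair labelled C404A mutant replicate 2, which runs against the others over all genes, 17 members (26.2%) were higher in all 8 remaining pairs, against 14.9% of all genes, and MRP13 alone of the members (1.54%) was higher in 0 pairs, against 16.8% of all genes. Without that pair of arrays 10 members rose and 0 fell, against 13.1% of genes higher and 14.4% lower, and the median was 0.093. The additional members were MRPL6, MRPL22, RSM22 and RSM28.

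**Figure D3:**
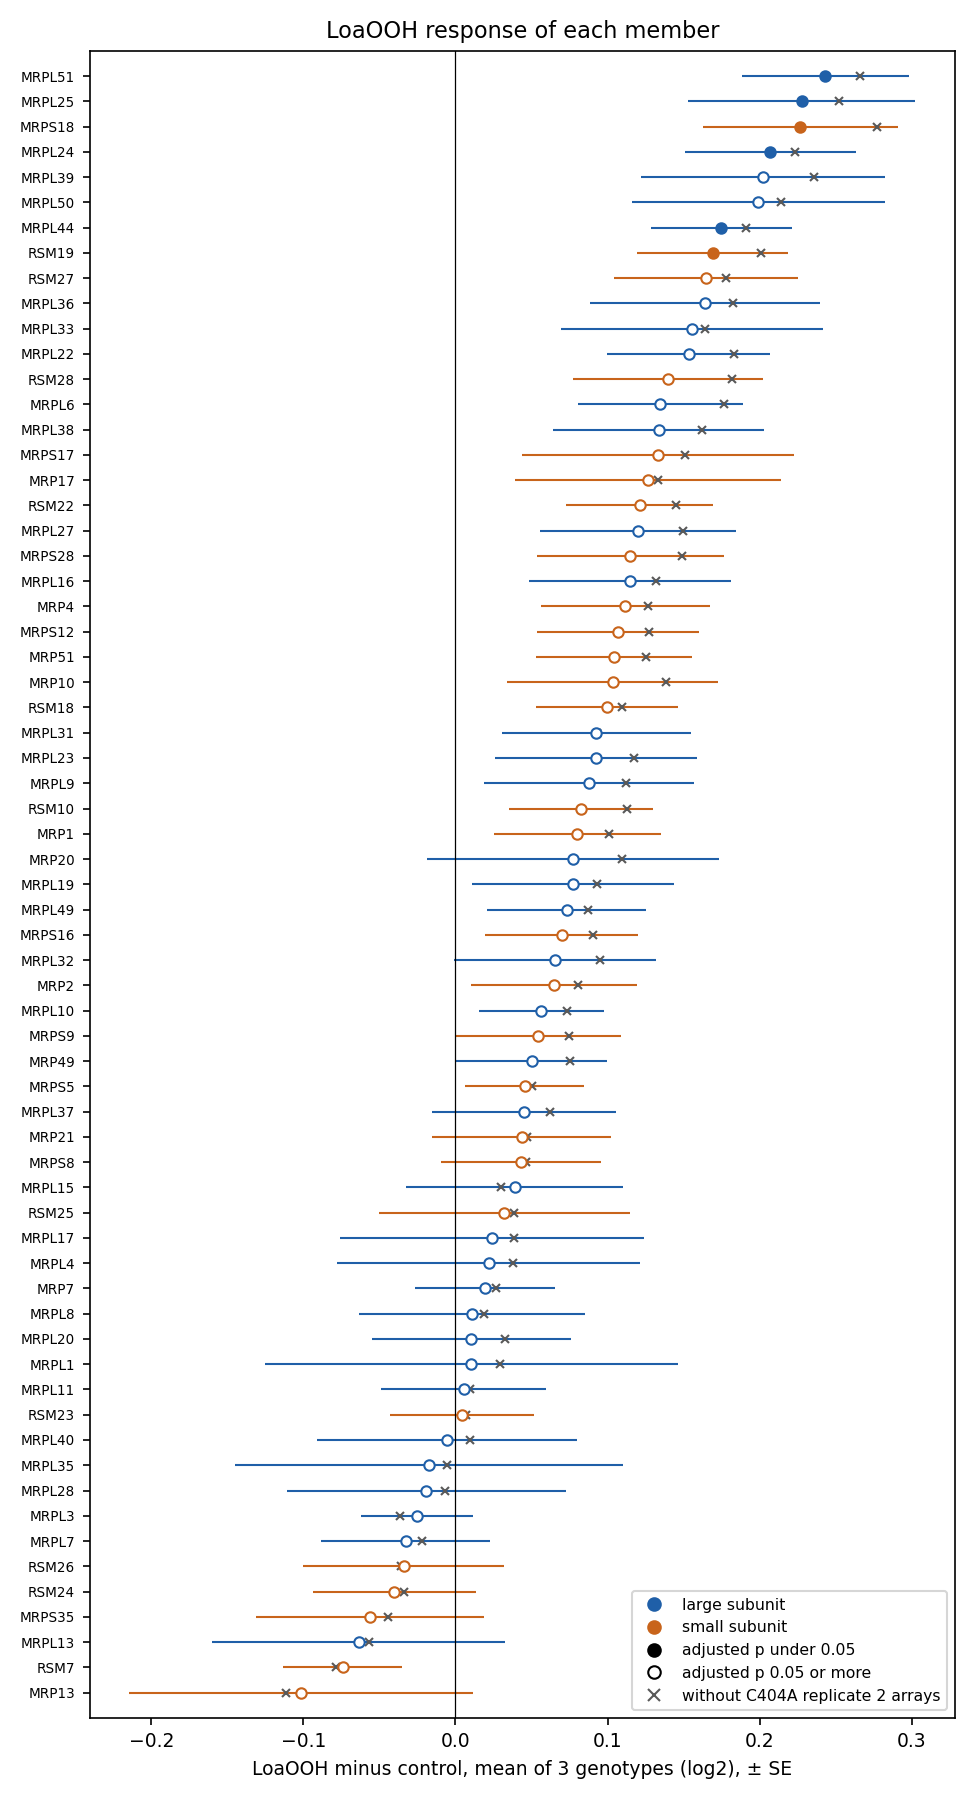
LoaOOH minus control for each of the 65 members, averaged over the 3 genotypes (log2, ± SE from limma), ordered by size; blue is large and orange small subunit, filled circles have an adjusted p under 0.05, and crosses are the values without the C404A mutant replicate 2 arrays. The members run from -0.10 (MRP13) to 0.24 (MRPL51), and 54 lie above 0.

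Within single genotypes 0 members passed the test. In wild type 0.165% of genes rose and 0.0918% fell, in the deletant 1.82% and 1.74%, and in the C404A mutant 0% and 0%. At an unadjusted p under 0.05, 3, 6 and 3 members were higher and 0 lower in wild type, the deletant and the C404A mutant. Of the 5449 genes, 439 were higher and 588 lower at that threshold in wild type, 543 and 618 in the deletant, and 160 and 159 in the C404A mutant. Medians over the members were 0.068, 0.062 and 0.079, with 50, 47 and 56 members above 0, against 50.6%, 50.5% and 49.4% of all genes. The largest rise and fall were MRPL51 (0.28 ± 0.10) and MRPS35 (-0.15 ± 0.13) in wild type, MRPL50 (0.36 ± 0.14) and MRP13 (-0.15 ± 0.20) in the deletant, and MRPS28 (0.26 ± 0.11) and MRPL3 (-0.09 ± 0.06) in the C404A mutant. None of these passed the limma test.

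By pairs of arrays with the same number, the median LoaOOH minus control difference over the members was 0.089, 0.145 and -0.023 in wild type, 0.038, 0.097 and 0.055 in the deletant and 0.102, -0.029 and 0.163 in the C404A mutant. The negative values are those of wild type replicate 3 and of the pair that stood apart. Without that pair, MRPS18 passed in the deletant (0.35 ± 0.10, limma adjusted p = 0.0479), where 4.04% of genes rose, and the C404A mutant median was 0.139 with 58 members above 0. With same-numbered arrays of a genotype as a pair, 13 members rose on average over the genotypes and 0 fell, against 16.1% of genes higher and 18.5% lower.

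The response did not differ detectably between genotypes. In the 3 comparisons of responses 0 members and 0% of genes passed the limma test, and 0 members had even an unadjusted p under 0.05. Median differences over the members were -0.001 for deletant minus wild type, 0.004 for C404A mutant minus wild type and 0.016 for C404A mutant minus deletant. Both C404A mutant values include the replicate 2 pair that stood apart. Without that pair the median response of the C404A mutant was 0.139, against 0.068 in wild type and 0.062 in the deletant. The median SE of such a difference over genes was 0.144, which is larger than the median response of the members, so differences of that size could not be seen here. The largest estimates were MRPL50 at 0.23 ± 0.20 and MRPL17 at -0.12 ± 0.24 for deletant minus wild type. For C404A mutant minus wild type they were MRPS35 at 0.26 ± 0.18 and MRP17 at -0.16 ± 0.21. For C404A mutant minus deletant they were MRPL32 at 0.29 ± 0.16 and MRPL50 at -0.26 ± 0.20.

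Between genotypes, RSM18 and RSM7 were the members that passed the test in more than 1 comparison. RSM18 is the homologue of bacterial S18 and the member on chromosome V. Its log2 signals were 11.85, 12.02 and 12.14 in wild type control, 12.98, 12.91 and 12.70 in deletant control and 12.99, 13.01 and 12.90 in C404A mutant control. After LoaOOH they were 12.06, 12.20 and 12.22 in wild type, 12.90, 12.98 and 12.98 in the deletant and 13.03, 13.01 and 13.03 in the C404A mutant. Every mutant array lay above every wild type array. In control cells RSM18 was higher by 0.86 ± 0.08 in the deletant (1.82-fold) and by 0.97 ± 0.08 in the C404A mutant (1.95-fold), and after LoaOOH by 0.80 ± 0.08 and 0.86 ± 0.08, with limma adjusted p of 5.03e-06 or less in each. These sizes are near the median shift of chromosome V genes. With that shift subtracted from the mutant arrays, RSM18 was at 0.11, 0.27, 0.02 and 0.15 in the same order and passed the test in none of the 4 (adjusted p of 0.0896 to 0.92).

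RSM7, on chromosome X, encodes the homologue of bacterial S7, which binds the small subunit RNA. Its log2 signals were 10.87, 10.94 and 11.04 in wild type control, 11.10, 11.27 and 11.16 in deletant control and 11.24, 11.34 and 11.31 in C404A mutant control. After LoaOOH they were 10.83, 10.95 and 10.87 in wild type, 11.13, 11.16 and 11.01 in the deletant and 11.13, 11.29 and 11.25 in the C404A mutant. At each treatment neither mutant overlapped wild type. The C404A mutant was higher by 0.35 ± 0.07 in control cells (limma adjusted p = 0.00342) and by 0.34 ± 0.07 after LoaOOH (limma adjusted p = 0.00482), the latter lost in CT arrays alone (adjusted p = 0.0892) and with the arrays of these groups fitted alone (adjusted p = 0.0922). In control cells the call held in all 16 alternatives, with adjusted p of 0.00184 to 0.0426. The deletant was higher by 0.23 ± 0.07 in control cells (limma adjusted p = 0.0421), a call lost in 10 of 16 alternatives, among them without wild type control replicate 1 or 2 or deletant control replicate 2 or 3. After LoaOOH the deletant difference was 0.22 ± 0.07 (limma adjusted p = 0.0584). RSM7 did not differ detectably between the mutants, at 0.12 ± 0.07 in control cells (limma adjusted p = 0.403).

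**Figure D4:**
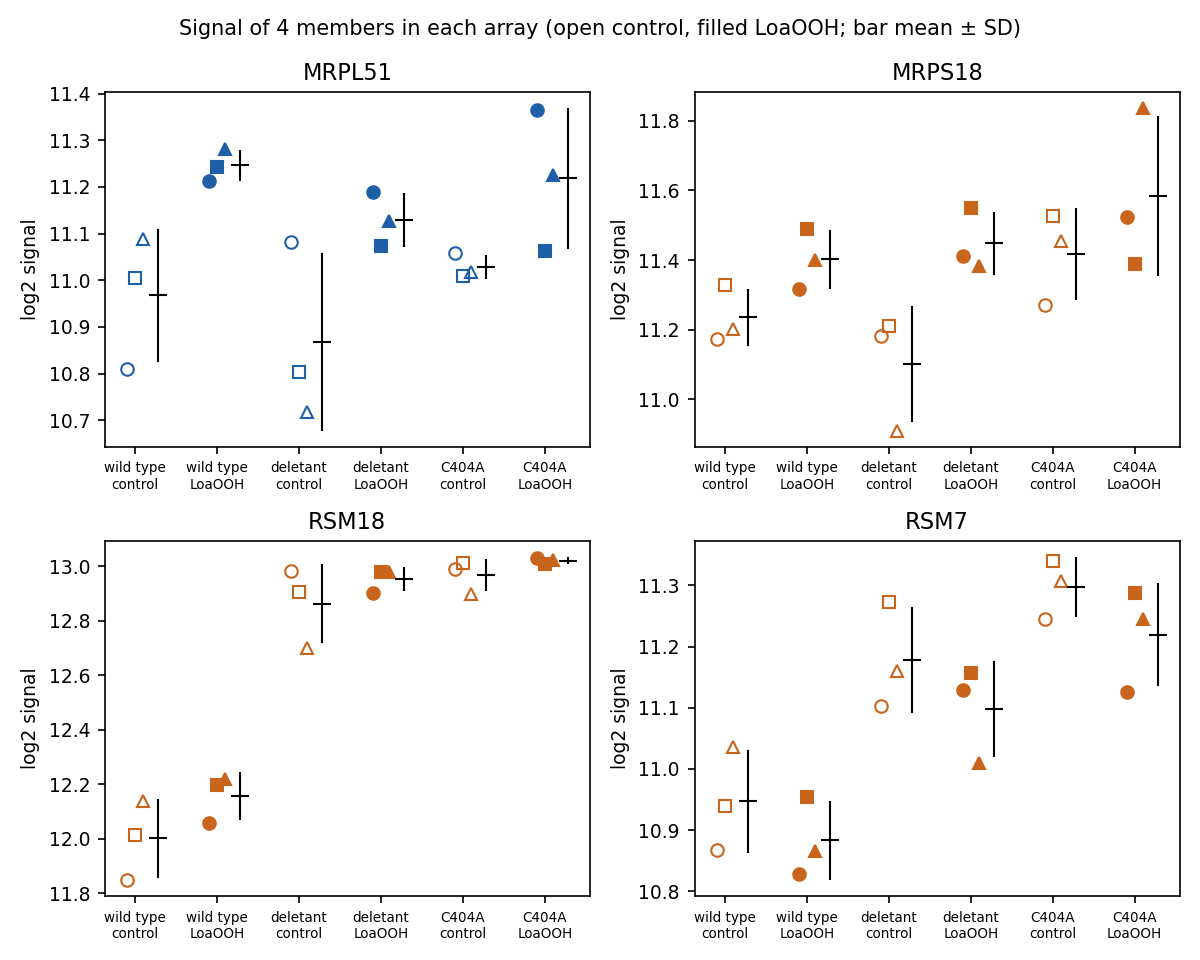
Log2 signal of MRPL51, MRPS18, RSM18 and RSM7 in each of the 18 arrays by group (circle, square and triangle for replicates 1, 2 and 3; open for control, filled for LoaOOH; blue large and orange small subunit), with mean ± SD beside the points; axes differ between panels. Every mutant array of RSM18 lies above 12.6 and every wild type array below 12.3.

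In control cells of the C404A mutant 5 members were higher than in wild type and 0 lower, against 5.62% of genes higher and 2.62% lower. Besides RSM18 and RSM7 these were MRPS12, MRPL3 and MRPL10. The shares of genes include those of chromosome V, which were shifted upward in both mutants, and RSM18 alone of the members lies there. MRPS12, the homologue of the bacterial decoding-centre protein S12, had 11.89, 12.03 and 12.02 in wild type and 12.17, 12.38 and 12.40 in the mutant. It was higher by 0.34 ± 0.09 (limma adjusted p = 0.0359). MRPL3 (mL44) had 10.83, 10.88 and 10.89, then 11.08, 11.02 and 11.24, and was higher by 0.25 ± 0.06 (limma adjusted p = 0.0253). MRPL10, the homologue of bacterial L15, had 11.62, 11.74 and 11.83, then 11.95, 12.03 and 11.94, and was higher by 0.24 ± 0.07 (limma adjusted p = 0.0479). The 2 groups did not overlap for MRPS12, MRPL3 or MRPL10. MRPS12 and MRPL10 each lost their call in 12 of 16 alternatives, and MRPL3 in 6. Leaving out a single array ended the call of MRPS12 for each wild type control array and for C404A mutant control replicates 2 and 3. It ended that of MRPL10 for wild type control replicates 1 and 2 and each C404A mutant control array, and that of MRPL3 for each wild type control array and C404A mutant control replicate 3. Without both arrays labelled C404A mutant replicate 2, MRPL3, RSM7 and RSM18 passed, against 4.83% of genes higher, and the median over the members was 0.071 in place of 0.120. Without wild type control replicate 1, 2 members passed and the median was 0.044.

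In deletant control cells 2 members, RSM18 and RSM7, were higher than in wild type and 0 lower, against 6.94% of genes higher and 3.17% lower. After LoaOOH 1 member (RSM18) was higher in the deletant and 0 lower, against 7.36% and 3.05% of genes. In the C404A mutant 2 (RSM18 and RSM7) were higher and 0 lower, against 5.34% and 2.04%. These shares against wild type also include the shifted genes of chromosome V. The mutants did not differ detectably from each other in any member, in control cells (0.716% of genes higher, 1.08% lower) or after LoaOOH (0.661% and 0.789%). At an unadjusted p under 0.05, 15 members were higher in C404A mutant than deletant control cells and 6 after LoaOOH, and 0 were lower. Of the 5449 genes, 300 were higher and 521 lower at that threshold in control cells, and 251 and 454 after LoaOOH. The largest estimates were MRPL50 at 0.40 ± 0.14 and MRPL1 at -0.33 ± 0.24 in control cells, and MRPS17 at 0.37 ± 0.15 and MRPL35 at -0.29 ± 0.22 after LoaOOH.

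The median difference of the members between each mutant and wild type was above 0 in CT arrays and, except for the C404A mutant after LoaOOH, below 0 in JC arrays. In control cells the median C404A mutant minus wild type difference was 0.120 with 51 members above 0, against 43.3% of genes. In CT arrays it was 0.240 with 65 of 65 members above 0, where 50.1% of genes were above 0. In JC arrays, 1 per group, it was -0.189 with 18 members above 0. Over all genes that JC difference had a median of -0.066, with 42.0% of genes above 0. For deletant minus wild type the median was 0.040 in all arrays (42 members above 0, against 48.5% of genes). It was 0.155 in CT arrays (58 members above 0, against 49.2% of genes) and -0.178 in JC arrays (14 above 0, against 51.4%). After LoaOOH the C404A mutant gave 0.169 and 0.042 and the deletant 0.117 and -0.064 in CT and JC arrays. Without wild type control replicate 1 the deletant median in control cells was -0.049.

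**Figure D5:**
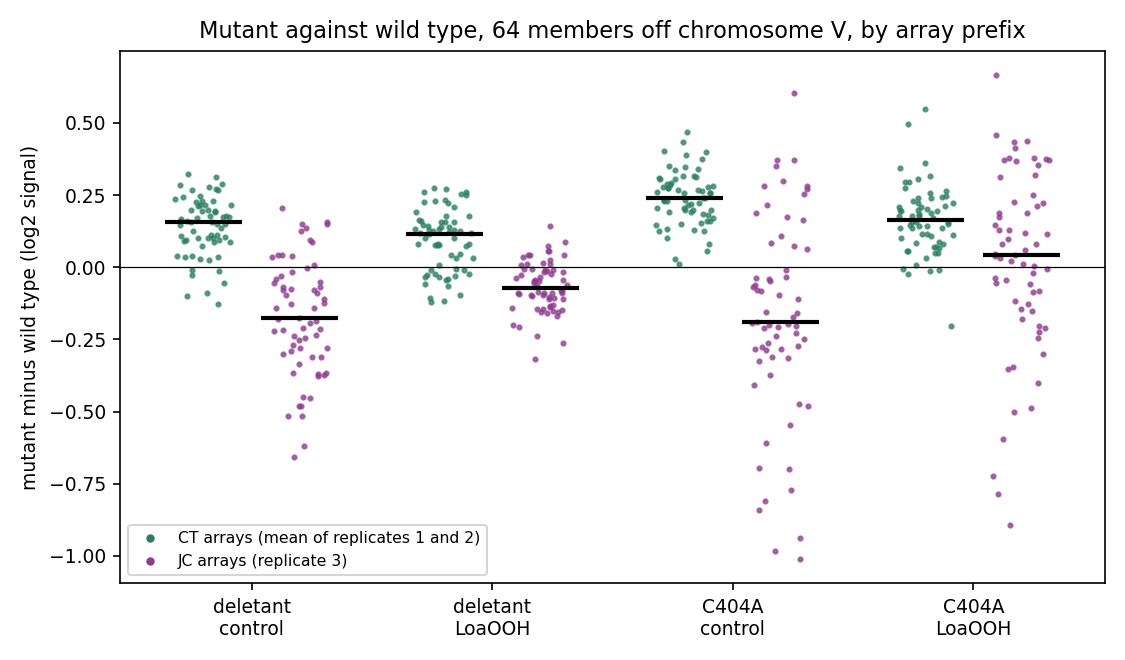
Mutant minus wild type (log2 signal) for the 64 members off chromosome V, 1 point per gene, in CT arrays (green, mean of replicates 1 and 2) and in the JC array (purple, replicate 3), with horizontal lines at medians. In control cells both mutants lie mostly above 0 in CT arrays and mostly below 0 in JC arrays.

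Other lists of genes for mitochondrial translation are set against the 9.56% of all genes that rose and the 11.5% that fell after LoaOOH. Averaged over the genotypes, 1 of 14 mitochondrial ribosomal proteins under other names rose, the small subunit protein PET123 (0.25 ± 0.06, limma adjusted p = 0.00587). Of 17 mitochondrial aminoacyl-tRNA synthetase and amidotransferase genes 2 rose, MSD1 (0.19 ± 0.06) and SLM5 (0.15 ± 0.05), and of 17 translational activators 2 rose, PET54 (0.24 ± 0.06) and PET111 (0.14 ± 0.04). YTA12, a subunit of the inner membrane protease that matures a mitochondrial ribosomal protein, was the 1 of 9 assembly genes that rose (0.14 ± 0.05). Of 11 translation factors and 8 genes of mitochondrial transcription and genome maintenance 0 rose and 0 fell. Medians of these lists ran from 0.034 to 0.108.

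Of 36 oxidative phosphorylation genes, whose products include partners of the proteins made by this ribosome, 5 rose and 0 fell, against the same 9.56% and 11.5% of all genes, with a median of 0.116 and the highest values in NDI1 (0.31 ± 0.09), CYT1 (0.29 ± 0.09) and QCR10 (0.29 ± 0.07). Among 10 regulators of nuclear genes for mitochondria ROX1, the repressor of hypoxic genes, fell by 0.49 on the log2 scale (SE 0.07, limma adjusted p = 0.000834), and HAP1, the haem-responsive activator, fell by 0.11 (SE 0.03). Of the 127 cytosolic ribosomal protein genes 0 rose and 9 fell, against 9.56% and 11.5% of all genes, with a median of -0.046 and 4 above 0. In control cells RML2, a large subunit protein outside the symbol rule and on chromosome V, was higher by 0.77 ± 0.10 in the deletant and by 0.76 ± 0.10 in the C404A mutant, sizes near that of the chromosome as for RSM18. HAP1 was lower in C404A mutant than wild type control cells, at -0.21 ± 0.06 (limma adjusted p = 0.0374), and HAP3, a subunit of the CCAAT-binding activator of respiratory genes, was higher, at 0.45 ± 0.12 (limma adjusted p = 0.0252).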

How the data were processed

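Expression was measured in 18 samples, 1 Affymetrix array each. The submitters' processing notes name PLIER and Affymetrix Expression Console as the tools. The values the authors deposited lie on a log2 scale, judged from their range of 2.47 to 14.99. The sources used here give neither versions nor the normalization. Of 10928 probe sets, 5498 name 1 yeast gene, giving 5449 genes (for 47 genes with several probe sets, 1 was kept). Array medians over genes differed by 0.0771, under the limit of 0.1, so values were used as deposited. Background was the 95th percentile of the mean signals of 1746 probe sets of another organism.

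All 13 comparisons were contrasts in a single model of 6 group means (limma 3.58.1 in R 4.3.3), tested two-sided with eBayes and adjusted by Benjamini-Hochberg over all genes at 0.05. The fit was tested on simulated data. The number of arrays limits the precision: the median SE of a response was 0.102. Values were given for up to 8 members per comparison with the largest difference among those passing, or the largest rise and fall where fewer than 2 passed, with array values for up to 4, and up to 4 passing genes per pathway list. The members beyond this rule (MRPL1, MRPL35, MRP13, MRPL25, MRPL39 and MRPL50 between replicates) were chosen after their values were seen. Members and lists were chosen with earlier results of these data known.

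Whether replicate numbers pair arrays was checked by the correlation of deviations from group means: within a genotype, control and LoaOOH arrays of the same number gave 0.856, 0.502 and 0.640 in wild type, 0.115, 0.182 and 0.605 in the C404A mutant and 0.264, 0.250 and 0.055 in the deletant. All values of wild type and the C404A mutant passed a limit of 0.1, whereas the deletant value of 0.055 did not. Across genotypes the values ran from -0.745 to 0.559, with 11 of 36 over 0.1. The check therefore does not settle which arrays are pairs, and the main tests used no pairing. With same-numbered arrays of a genotype as a pair, the median SE of a response was 0.073 in place of 0.102. Alternatives were quantile normalization, median centring, removal of the chromosome V shift, other probe sets, a filter on dim genes, blocks for replicate number or prefix, CT arrays alone, smaller fits and leaving out arrays. Blocks within genotype and JC arrays alone were chosen after seeing the data.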

Additional observations from a re-analysis of the deposited data

How the results depend on the processing

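Across the alternatives run, 0 members fell in any of the 13 comparisons. The count of members that rose in the averaged LoaOOH response was 6, against 9.56% of all genes. It was 1 in CT arrays alone and 4 to 10 on leaving out single arrays. Without both C404A mutant replicate 2 arrays it was 10, against 13.1% of genes. With the replicate block within genotype it was 13, against 16.1% of genes. It was 23 with that block and without those arrays, and across the alternatives up to 2326 genes were called in all. The replicate block over all genotypes gave 5. With the block within genotype and without those arrays, 2 members rose in wild type, 3 in C404A mutant and 4 in deletant cells. In that fit 414 of all genes rose in wild type and 512 in the deletant. Without those arrays and with no block, 1 member rose in the deletant, against 4.04% of genes. In deletant against wild type control cells the count of 2 became 1 with quantile normalization, median centring, the prefix block, CT arrays alone or the 2 groups alone, 0 with the chromosome V shift removed and 1 to 2 without single arrays. In C404A mutant against wild type control cells the count of 5 became 3 with quantile normalization, the prefix block or without both C404A mutant replicate 2 arrays, 2 with the chromosome V shift removed or the 2 groups alone, and 2 to 4 without single arrays. After LoaOOH the deletant count of 1 became 0 with the chromosome V shift removed, 2 with the replicate block and 1 to 2 without single arrays, and the C404A mutant count of 2 became 1 with the shift removed, in CT arrays or with the 2 groups alone, and 2 to 3 without single arrays. Counts given here without a share of all genes beside them are no result about the members. The causes were not tested, beyond that fewer arrays enter several of these fits.

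Medians over the members moved by more than the spread between arrays in CT arrays alone (control cells against wild type: deletant 0.155, C404A mutant 0.240) and in JC arrays alone (-0.178 and -0.189 in control cells, -0.064 and 0.042 after LoaOOH, -0.023 for the wild type response and 0.199 for C404A mutant minus wild type response). Estimates of MRPS35 in the wild type response (0.0106) and MRPL1 in C404A mutant minus deletant control cells (0.0599) changed sign in CT arrays alone, and neither had passed the test. Of 672 values of named members under alternatives, 600 kept direction and side of the threshold and 69 lost their call. The 672 include many values of members that had not passed the test and so had no call to lose. Over all genes, the number called in the averaged response ran from 531 to 2326 around 1147, and in the wild type response from 0 to 967 around 14.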
